A study of Mus musculus with 30 samples.

Results

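Cry1, Cry2, Csnk1d, Csnk1e and Btrc encode proteins that drive or time the negative limb of the mammalian circadian clock. They were followed here on 1-colour Agilent arrays of mouse hypothalamus, as all 11 non-control probes annotated to these 5 genes, out of 41174 probes for 28146 annotated gene names. Csnk1d had 4 probes, Cry1, Cry2 and Csnk1e had 2 each, and Btrc had 1. The series description counts 30 mice for the 30 arrays, while the study's methods, which describe adult male C57BL/6 animals, give fewer WT mice than there are WT arrays. The sources used here do not settle this, and if WT arrays share mice, the p-values measure in part technical spread. The mice were killed in cycle 17 of an ultradian schedule of 3.5 h light and 3.5 h dark. All were sampled in that light phase, so the arrays hold no time course and no animals outside the schedule.

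The Per3 5/5 mice (labelled Boxhill, 7 arrays) and the Per3 4/4 mice (labelled Coach, 8 arrays) are homozygous knock-ins in which an exon of mouse Per3 was exchanged for the human PER3 exon that holds 5 or 4 copies of a tandem repeat. The alleles were made with loxP sites and a ubiquitous, PGK-driven Cre that was then bred out, and the wild-type (WT, 15 arrays) mice, with the mouse exon, came from the same conditional stock after the same cross. The arrays were made in 2 runs that the scanner files tell apart by layout: 7 Per3 5/5 and 7 WT arrays (WT 1 to 7) in run 1, and 8 Per3 4/4 and 8 WT arrays (WT 8 to 15) in run 2. Each knock-in was therefore compared only with the WT arrays of its own run, and Per3 5/5 was never set directly against Per3 4/4.

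Of 13 hypothalamic marker genes with a probe, 11, among them Hcrt, Pmch, Avp and Oxt, were well above background on all 30 arrays. Sim1 was on 14 and Otp on 0. All 5 marker genes each of thalamus, striatum and oligodendrocytes were also detected on all 30, so detection does not set the hypothalamus apart. WT 10 went against the hypothalamus label. The log2 sum of its hypothalamic markers was 3.71, where the other WT arrays of run 2 had 7.05 to 9.31, and that of its thalamic markers 2.63, where they had 4.83 to 6.47. The striatal sum of WT 10 was 4.22, where the other WT arrays of run 2 had 1.55 to 2.67. Its sum for cortex and hippocampus was 1.86, where they had -1.54 to 0.86. WT 14 had a pituitary marker sum of 9.94, the other arrays of run 2 at most 4.63. The counts, the run comparison, the correlations and the values that moved most are therefore also given without WT 10 and WT 14, a choice made after seeing the data.

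CRY1 and CRY2 are the cryptochromes, which enter the nucleus with PER proteins and repress transcription by CLOCK and BMAL1. Casein kinases CK1δ (Csnk1d) and CK1ε (Csnk1e) phosphorylate PER proteins, and β-TrCP (Btrc), the substrate-recognition subunit of an SCF ubiquitin ligase, binds phosphorylated PER and marks it for the proteasome. The tau mutation of the golden hamster, which shortens the free-running period, lies in CK1ε, and loss of Cry1 or of Cry2 changes the period of mice in opposite directions. The comparisons here ask whether the transcripts of these PER partners differ between mice with the human repeat and WT mice.

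No difference in any of the 5 genes was detected in either knock-in. Between Per3 5/5 and WT of run 1, 0 of the 11 probes had an adjusted p under 0.05 in limma, where 0% of the 29947 probes tested passed, and 0 of 11 had an unadjusted p under 0.05, where 6.17% of all probes did. In Per3 4/4 against WT of run 2, 0 of 11 passed the adjusted threshold, where 0.0134% of all probes did, and 0 of 11 the unadjusted one, where 1.73% did. The test of the difference between the knock-in effects gave 0 of 11 at both thresholds, against 0% and 2.98% of all probes. Without WT 10 and WT 14 the counts for Per3 4/4 were again 0 of 11 at both thresholds, with values from -0.25 to 0.35. Exact permutation tests of each probe within its run, two-sided and 22 in all, gave a smallest p of 0.132, and 0.952 or more after Benjamini-Hochberg adjustment over the 22. The arrays of knock-in and WT failed to overlap for 0 of 11 probes in each run, beside 0.174% of all probes tested for Per3 5/5 and 0.0134% for Per3 4/4, so overlap was the rule on these arrays.

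**Figure D1:**
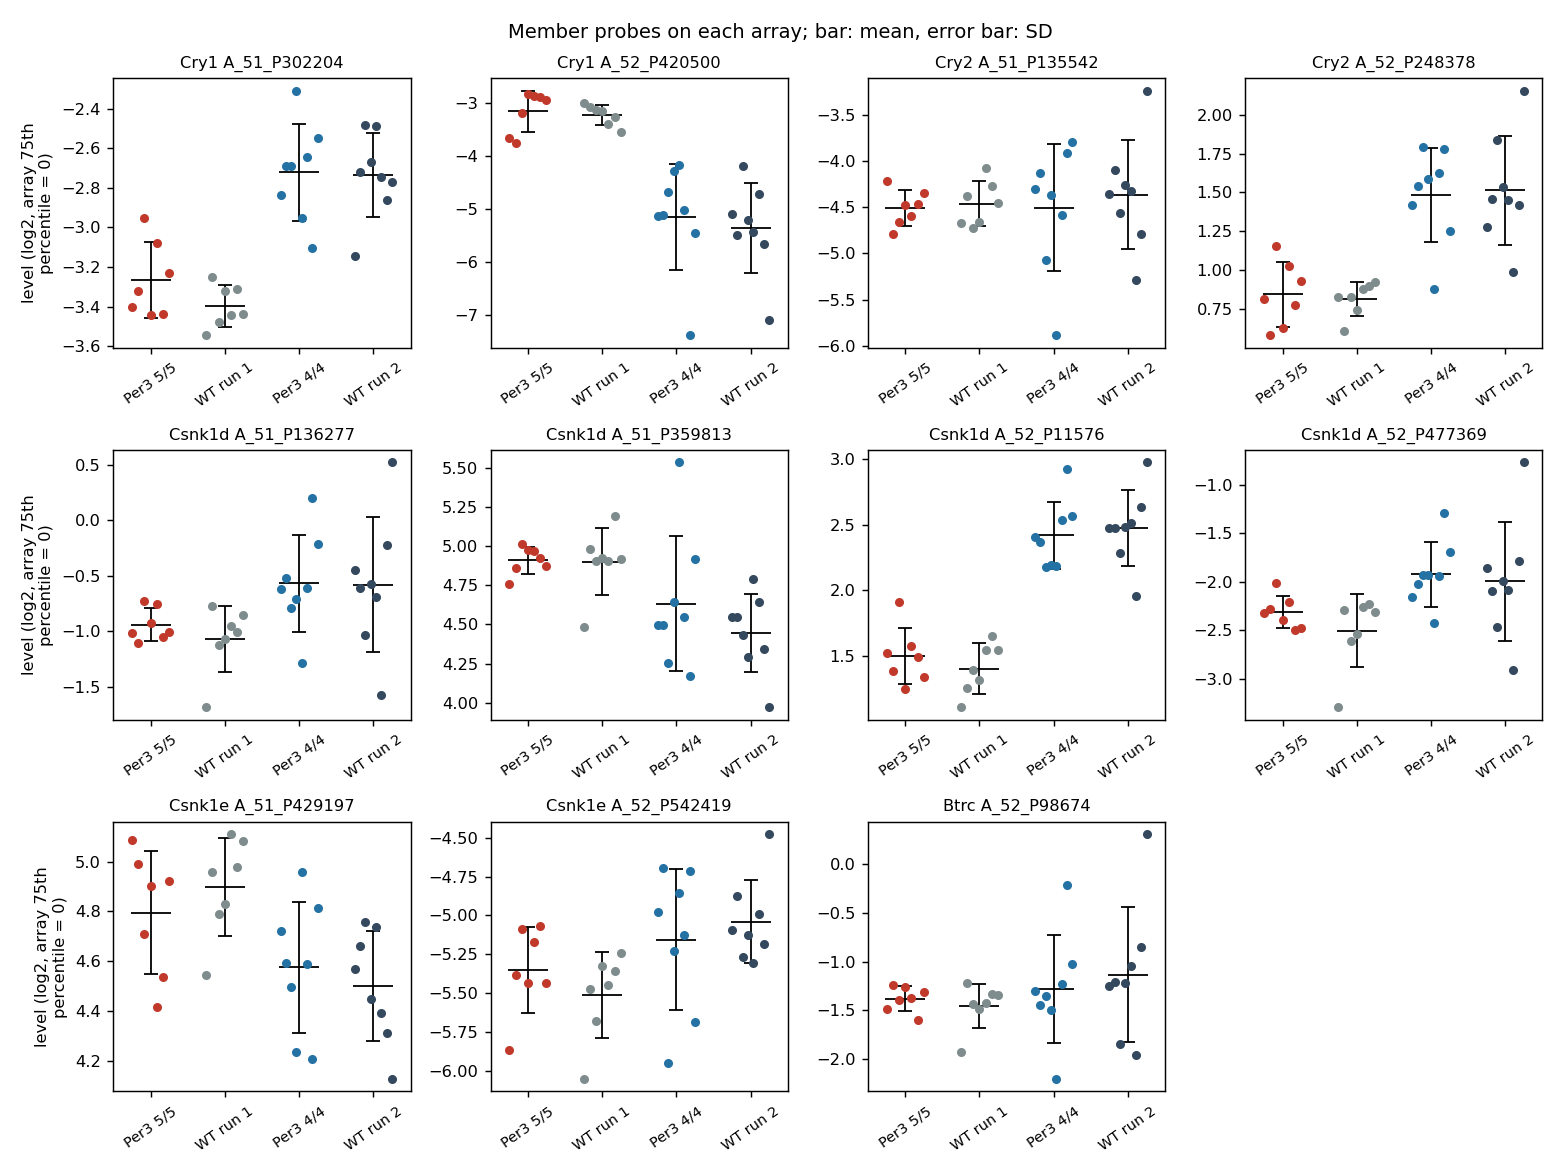
Level of each of the 11 probes on each array (y axis, log2 with the 75th percentile of the array set to 0; each panel has its own scale), by group (x axis: Per3 5/5 and WT of run 1, Per3 4/4 and WT of run 2). Each point is an array, the horizontal bar the group mean and the error bar the SD. Knock-in and WT points of the same run overlap in every panel. The points of the runs are fully apart only for Cry1 A_52_P420500 and Csnk1d A_52_P11576.

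Levels are given as log2 of the processed intensity with the 75th percentile of each array set to 0, and differences are taken within a probe. Where a gene had several probes, the one with the highest mean signal served as its reference probe in the correlations, a choice that says nothing of transcript levels. A probe's brightness also depends on its own sequence, so the 60-base probes that bear on the results are shown with G and C in capitals. The 4 probes in coding sequence are given whole and the others as their first 30 bases. The Cry1 pair differed widely in base composition: the annotation of the scanner files (mouse build mm9, minus strand) places A_51_P302204 at chr10:84606495-84606554, with a GC content of 43.3%, and A_52_P420500 at chr10:84594731-84594790, with 23.3%, a value that 2.02% of all probes reach or stay under.
Cry1 A_51_P302204: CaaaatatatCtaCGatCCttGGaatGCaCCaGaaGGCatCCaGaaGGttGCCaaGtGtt
Cry1 A_52_P420500: ttttCatGtatGGtaaaaGttaaaGttaaC

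The first Cry1 probe was detected above background throughout. Its level in Per3 5/5 ran from -3.44 to -2.95 with a median of -3.32, and in WT of run 1 from -3.55 to -3.25 with a median of -3.44. Of the 7 Per3 5/5 arrays, 3 lay above every WT array of the run and the other 4 within the WT range. The log2 difference was 0.13 ± 0.11 (SE), with a 95% interval of the fold from 0.934 to 1.29 (limma, p = 0.25, adjusted p = 0.889). This was the smallest unadjusted p of the 11 probes in Per3 5/5. The difference was positive on 4 of 4 slides, each with only 1 or 2 arrays per group, and this agreement was not tested.

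In run 2 the medians of this Cry1 probe lay close together. Per3 4/4 levels ran from -3.11 to -2.31 with a median of -2.69, and WT levels from -3.15 to -2.48 with a median of -2.73. The log2 difference was 0.014 ± 0.11 (SE; 95% interval of the fold 0.869 to 1.17). The test of the difference between the effects gave 0.12 with an interval from -0.20 to 0.44 (limma, p = 0.448), so the knock-ins were not shown to differ.

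The AT-rich Cry1 probe gave much less precise values. It exceeded background clearly on every array of run 1, but in run 2 on 6 of the 8 Per3 4/4 and 5 of the 8 WT arrays. Per3 4/4 levels there ran from -7.39 to -4.18 around a median of -5.06, and WT levels from -7.09 to -4.19 around a median of -5.33. The log2 difference was 0.21 in Per3 4/4 (0.35 without WT 10 and WT 14), with a 95% interval from -0.49 to 0.90, and 0.067 in Per3 5/5, with an interval from -0.67 to 0.81. In Per3 5/5 the arrays split around WT: 4 lay above the highest WT array, 2 below the lowest and 1 within the range. Its residual SD of 0.71 exceeded that of 92.6% of the probes tested.

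Cry2, the other cryptochrome, had A_52_P248378 (chr2:92244363-92244422) as its reference probe. The other, A_51_P135542, crosses an exon junction, its 60 bases spanning 2266 bases of the genome at chr2:92254083-92256348.
Cry2 A_52_P248378: CatCattCtGaCtaGaaGCatCCtatGatt
Cry2 A_51_P135542: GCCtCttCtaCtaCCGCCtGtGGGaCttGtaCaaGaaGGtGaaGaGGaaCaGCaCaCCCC
Per3 5/5 levels of the reference probe ran from 0.58 to 1.16 with a median of 0.82, and WT levels of run 1 from 0.61 to 0.92 with a median of 0.83. In run 2 the Per3 4/4 levels ran from 0.88 to 1.79 with a median of 1.57, and the WT levels from 0.99 to 2.15 with a median of 1.45. Of the Per3 5/5 arrays 3 lay above and 1 below every WT array, and 7 of 8 Per3 4/4 arrays lay within the WT range. The fold was 1.02 in Per3 5/5 (95% interval 0.832 to 1.25) and 0.979 in Per3 4/4 (0.81 to 1.18). The junction probe gave log2 differences of -0.045 and -0.14, with intervals from -0.56 to 0.47 and from -0.63 to 0.34, and -0.25 in Per3 4/4 without WT 10 and WT 14.

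Csnk1d was covered by 4 probes, each detected above background throughout. The annotation assigns A_52_P477369 (chr11:120830435-120830494, GC content 55%) to another Csnk1d transcript than the other 3, of which A_51_P359813 (chr11:120823086-120823145, GC content 33.3%) lies farthest in the 3′ direction. This pair is printed because it behaved differently between the runs and between arrays, as described further on.
Csnk1d A_52_P477369: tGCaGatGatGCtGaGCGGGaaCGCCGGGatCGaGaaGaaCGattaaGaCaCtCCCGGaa
Csnk1d A_51_P359813: CtGaGCtGtGCGtttGtaCtaCCaCtGtat

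The largest difference among the 11 probes in Per3 5/5 was that of Csnk1d A_52_P477369. Per3 5/5 levels ran from -2.50 to -2.02 with a median of -2.32, and WT levels from -3.30 to -2.23 with a median of -2.31. All 7 Per3 5/5 arrays lay above the WT mean, yet the medians hardly differed, and WT 1 was the lowest WT array at -3.30. The log2 difference was 0.19 ± 0.22 (SE), or 1.14-fold with a 95% interval of 0.843 to 1.55 (limma, p = 0.378, adjusted p = 0.937), and it was 0.061 without WT 1. For Per3 4/4 it was 0.072 (0.028 without WT 10 and WT 14), with an interval from -0.34 to 0.48, and all 8 knock-in arrays lay within the WT range.

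The smallest p of the 11 probes in Per3 4/4 belonged to Csnk1d A_51_P359813. Per3 4/4 levels ran from 4.17 to 5.54 with a median of 4.52, and WT levels from 3.97 to 4.79 with a median of 4.49. Of the 8 Per3 4/4 arrays, 2 lay above every WT array of the run. The log2 difference was 0.19 ± 0.14 (SE), or 1.14-fold with a 95% interval of 0.931 to 1.39 (limma, p = 0.198, adjusted p = 1), while the same probe differed by 0.0094 in Per3 5/5. Without Per3 4/4 array 5, the highest, it was 0.057. The remaining Csnk1d probes gave 0.12 (A_51_P136277, 0.021 without WT 1) and 0.094 (A_52_P11576, 0.025 without Per3 5/5 array 3) in Per3 5/5 and 0.0097 and -0.054 in Per3 4/4, so the 4 probes did not point to a common shift in Per3 4/4.

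Csnk1e, whose product shares most of the known substrates of CK1δ, was read best by A_51_P429197, which crosses an exon junction at chr15:79249597-79250373.
Csnk1e A_51_P429197: GGaaatGaGGaGaGCGaCCaCaGaCCaGtG
Csnk1e A_52_P542419: CaatGGattttGtttCtttGatttattttG
Levels of the first probe ran from 4.42 to 5.08 with a median of 4.90 in Per3 5/5 and from 4.55 to 5.11 with a median of 4.96 in WT of run 1. The log2 difference was -0.10 ± 0.13 (SE), or 0.93-fold with a 95% interval of 0.775 to 1.12. It was negative on 4 of 4 slides, from -0.34 to -0.021, again with only 1 or 2 arrays per group and not tested. Run 2 levels ran from 4.21 to 4.96 with a median of 4.59 in Per3 4/4, against 4.13 to 4.76 with a median of 4.51 in WT, a log2 difference of 0.076 with an interval from -0.17 to 0.32. The knock-in and WT ranges overlapped over most of their length in both runs.

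The second Csnk1e probe, A_52_P542419, was dim and rose clearly above background on 23 of 30 arrays. It gave 0.16 in Per3 5/5 and -0.12 in Per3 4/4 (-0.18 without WT 10 and WT 14), each opposite in sign to the first probe. The difference between those effects, 0.28 with a 95% interval from -0.21 to 0.77, was the largest of the 11 and did not pass the test (limma, p = 0.258). With a normexp background in place of the scanner's own, the Per3 5/5 value of this probe became -0.07.

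Btrc was represented by a single probe, A_52_P98674, which crosses an exon junction at chr19:45590587-45591553 on the plus strand.
Btrc A_52_P98674: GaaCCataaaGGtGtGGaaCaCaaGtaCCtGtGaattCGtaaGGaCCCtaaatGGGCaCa
Its levels ran from -1.60 to -1.24 with a median of -1.37 in Per3 5/5 and from -1.93 to -1.22 with a median of -1.42 in WT of run 1. In run 2 they ran from -2.21 to -0.21 with a median of -1.33 in Per3 4/4 and from -1.96 to 0.31 with a median of -1.21 in WT. The spread in run 2 (SD 0.55 and 0.69) was wider than in run 1 (SD 0.13 and 0.23), and the groups overlapped in both. The fold was 1.05 in Per3 5/5 (95% interval 0.742 to 1.49) and 0.902 in Per3 4/4 (0.651 to 1.25), where the log2 difference was -0.15, or -0.22 without WT 10 and WT 14.

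**Figure D2:**
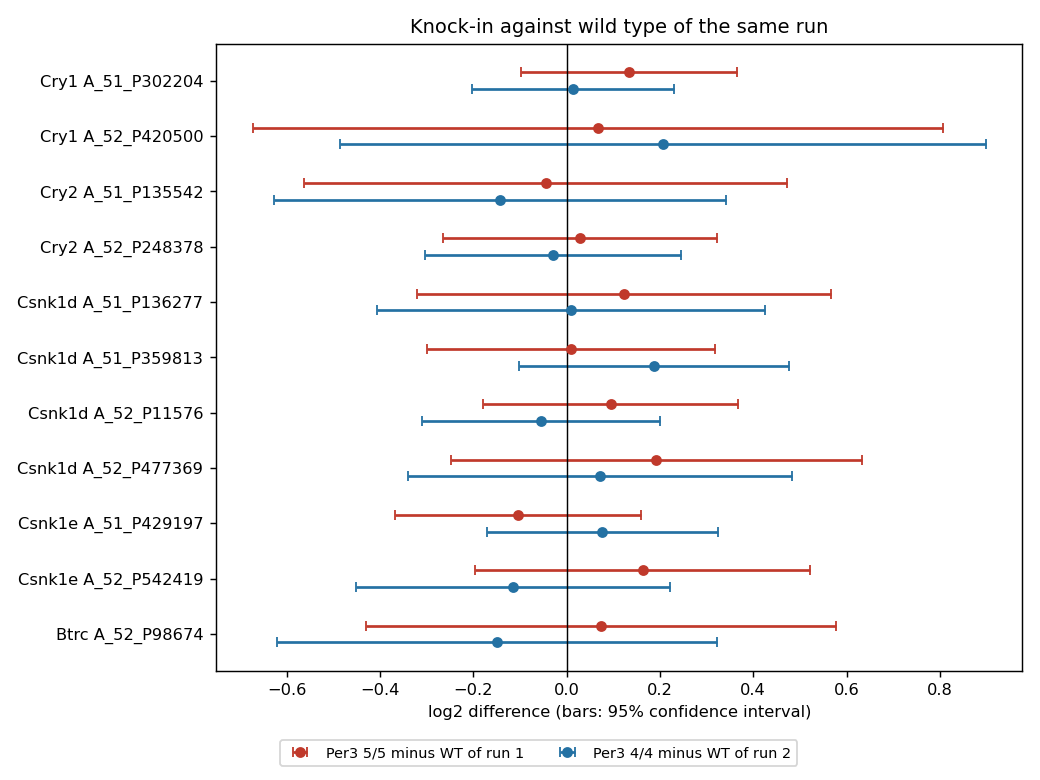
Log2 difference between knock-in and WT of the same run (x axis) for each of the 11 probes (y axis), coloured by knock-in; points are limma estimates and bars their 95% confidence intervals. All 22 intervals include 0, and the AT-rich Cry1 probe has the widest.

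Over the 11 probes the Per3 5/5 differences ran from -0.10 to 0.19 with a median of 0.074, beside a median of -0.020 over all probes tested. The Per3 4/4 differences ran from -0.15 to 0.21 with a median of 0.0097, beside 0.0059 over all probes. The median size of a difference, whatever its sign, was 0.094 and 0.076 for the 11 probes and 0.13 and 0.096 for all. Half-widths of the 95% intervals were 0.23 to 0.74 in Per3 5/5 and 0.22 to 0.69 in Per3 4/4, so changes inside them could not be told from none. In such tissue blocks fewer cells of a type and less RNA per cell cannot be told apart.

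For the genes around them, counts stand beside the shares of all probes with an unadjusted p under 0.05. These shares were 6.17% in Per3 5/5 and 1.73% in Per3 4/4. Of the rest of the clock loop (activators, Per and Rev-erb genes, and output factors), 17 of 18 listed genes had probes, and 0 of their 32 probes passed the adjusted threshold in either knock-in. At an unadjusted p under 0.05, 1 probe was lower in Per3 5/5, Per2 A_51_P282760 with -0.26 (p = 0.0351, adjusted p = 0.796; 6 of 7 arrays under the WT mean), while the other Per2 probe, A_52_P536869, gave -0.040. For Per3 4/4 it was Nfil3 A_51_P111492, coding for a repressor at D-box elements, with -0.28 (p = 0.0488, adjusted p = 1; 8 of 8 arrays under the WT mean), which was -0.16 (p = 0.254) without WT 10 and WT 14. The other Nfil3 probe, A_52_P500027, gave -0.14 (limma, p = 0.246) in Per3 4/4, and 0.014 without WT 10 and WT 14. Per3 itself, read by a single probe whose place relative to the exchanged exon is not given, differed by -0.23 in Per3 5/5 (95% interval -0.64 to 0.18) and by 0.23 in Per3 4/4 (-0.15 to 0.61).

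The other list held enzymes that modify PER or CRY proteins. All 30 listed genes had probes, 63 of their 67 probes were tested, and 0 passed the adjusted threshold in either knock-in. At an unadjusted p under 0.05 there were 2 of the 63 in each knock-in, beside 6.17% of all probes in Per3 5/5 and 1.73% in Per3 4/4. Those with the smallest p in Per3 5/5 were the phosphatase subunit Ppp2cb A_51_P125538 with 0.36 (p = 0.0119, adjusted p = 0.796), the deubiquitinase Usp2 A_51_P172663 with -0.36 (p = 0.0404; 7 of 7 arrays under the WT mean) and the phosphatase Ppp5c A_52_P323669 with 0.40 (p = 0.0581). Second probes of these genes gave -0.23 (Ppp2cb A_51_P125535), -0.11 (Usp2 A_52_P255489) and -0.055 (Ppp5c A_51_P307243), so those of Ppp2cb and Ppp5c had the opposite sign. For Per3 4/4 they included both probes of Fbxl21, a ligase subunit that binds CRY proteins, with 0.44 (A_51_P456838, p = 0.0254) and 0.41 (A_52_P41239, p = 0.0487; 8 of 8 arrays above the WT mean). The adjusted p of these Fbxl21 probes was 1, and without WT 10 and WT 14 they gave 0.23 (p = 0.14) and 0.11 (p = 0.349). The list medians were 0.028 and -0.013.

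**Figure D3:**
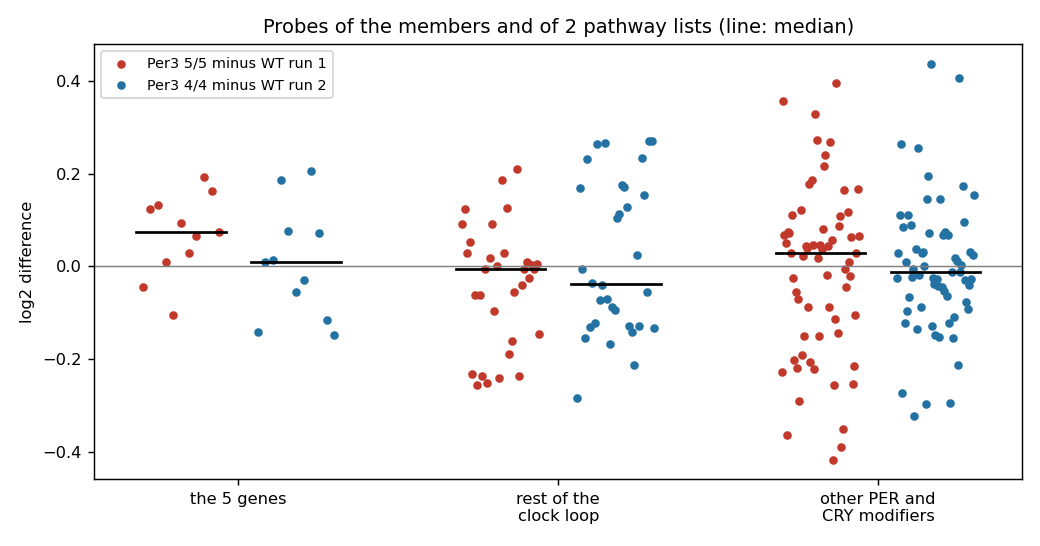
Log2 difference between knock-in and WT of the same run (y axis) for every tested probe of the 5 genes, of the rest of the clock loop and of other PER and CRY modifiers (x axis), coloured by knock-in. Each point is a probe and each line the median of its column; the 11 probes lie between -0.15 and 0.21, and both other lists spread wider around 0.

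None of the marker lists, of the hypothalamus or of neighbouring tissue, had a probe past the adjusted threshold in limma in either knock-in. Over all probes, 6.17% in Per3 5/5 and 1.73% in Per3 4/4 had an unadjusted p under 0.05. The 11 choroid plexus probes had a median log2 difference of -0.74 in Per3 5/5 (0 with an unadjusted p under 0.05) and 0.86 in Per3 4/4 (3, all higher). Their log2 sum ran from 1.90 to 3.20 in Per3 5/5 and 2.70 to 3.54 in WT of run 1, and from 2.03 to 4.64 in Per3 4/4 and 1.44 to 4.51 in WT of run 2. Markers of cortex and hippocampus had a median of -0.73 in Per3 5/5 (2 of 7 lower at an unadjusted p under 0.05), and pituitary markers one of -0.80 in Per3 4/4 (0 of 7). The hypothalamic markers themselves had medians of 0.23 in Per3 5/5 and 0.53 in Per3 4/4, and in Per3 4/4 the thalamic ones 0.44 and those of blood -0.32. Medians of the suprachiasmatic, striatal and oligodendrocyte lists were 0.080, -0.042 and -0.15 in Per3 5/5 and 0.26, -0.32 and 0.064 in Per3 4/4. Without WT 10 and WT 14 the Per3 4/4 medians were 0.038 for hypothalamus, -0.046 for thalamus, 0.15 for pituitary, 0.91 for choroid plexus and -0.30 for blood. Their part in the values of the 5 genes was not tested. Between 58.6% and 74.6% of spots were well above background per array, and 0 spots were saturated. The lowest shares were those of Per3 4/4 array 5 (58.6%) and WT 15 (60.9%). These were also the faintest arrays, with a 75th percentile of intensity of 347 and 490, where the others had 633 or more.

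The runs differed more than the genotypes. WT of run 2 against WT of run 1 gave 9 of 11 probes past the adjusted threshold, beside 64.7% of all probes, with the exceptions A_51_P135542 of Cry2 and the Btrc probe. Without WT 10 and WT 14 it was 8 of 11, beside 63.7% of all probes, as Csnk1d A_51_P136277 then had an adjusted p of 0.0527. Technical differences between the runs and differences between their mice cannot be told apart here, so these values cannot be assigned to the genes. Probes of the same gene went in opposite directions: Cry1 A_51_P302204 was higher in run 2 by 0.66 (adjusted p = 6.28e-06), while Cry1 A_52_P420500 fell by 2.14 (adjusted p = 5.68e-06).

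The kinase genes split in the same way. For Csnk1d, A_52_P11576 was higher in run 2 by 1.07, A_52_P477369 by 0.51 and A_51_P136277 by 0.49, while A_51_P359813 fell by 0.46. For Csnk1e, A_52_P542419 was higher by 0.47 and A_51_P429197 fell by 0.40. Both Cry1 and Csnk1d had their lower value in run 2 at the probe with the lower GC content, and Csnk1e at the probe with the higher one. Over all probes tested, the median run difference was -1.35 for the 481 probes with a GC content under 30% and 0.084 for the 5860 with 50% or more, and the correlation of run difference and GC content across probes was 0.21.

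**Figure D4:**
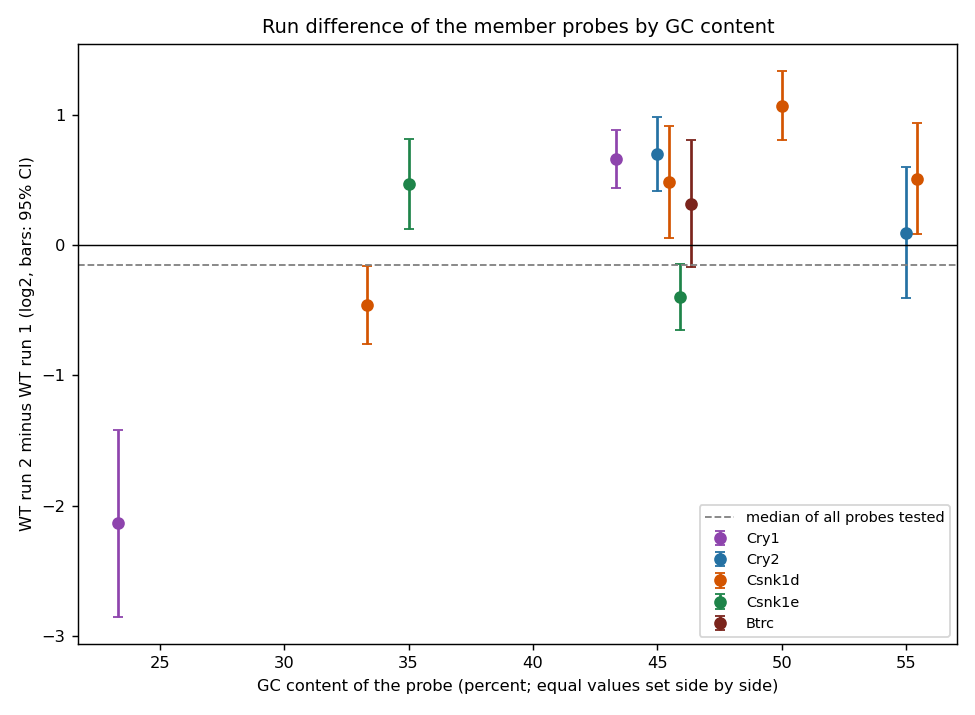
Difference between WT of run 2 and WT of run 1 (y axis, log2, bars 95% confidence intervals) against the GC content of each of the 11 probes (x axis, percent), coloured by gene. The dashed line is the median of all probes tested, -0.15; probes of Cry1, of Csnk1d and of Csnk1e lie on both sides of 0.

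Some of the 11 probes also varied together between arrays of the same group. After the mean of each genotype in each run was removed, 3 of the Csnk1d probes followed each other over the 30 arrays: A_51_P136277 and A_52_P477369 with Pearson r = 0.951 and Spearman rho = 0.813, A_52_P11576 and A_52_P477369 with 0.842 and 0.755, and A_51_P136277 and A_52_P11576 with 0.841 and 0.759. All 3 pairs gave a Pearson permutation p of 1e-05, the smallest that 100000 permutations within the groups can give, and a Benjamini-Hochberg adjusted p of 6.33e-05 over 19 pairs (Spearman 0.00019). They stayed at 0.748 or more without the 2 arrays farthest from the median, at 0.834 or more without WT 10 and WT 14, and at 0.573 or more within each run. The fourth probe, A_51_P359813, followed them in run 1 (r = 0.786, 0.823 and 0.569 with A_51_P136277, A_52_P477369 and A_52_P11576) and ran against them in run 2 (r = -0.616, -0.591 and -0.486). WT 1 was the lowest WT array of run 1 for every Csnk1d probe. The run 1 values were not computed without it, so they may rest largely on that array.

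The probe pairs of the other genes were less alike. The Cry1 pair gave r = 0.35 (rho = 0.136, adjusted permutation p = 0.184 and 0.877) and the Csnk1e pair r = -0.196 (rho = -0.219, adjusted permutation p = 0.415 and 0.51). The Cry2 pair gave r = 0.555 with an adjusted permutation p of 0.0389, but rho = 0.236 (0.508). Without Per3 4/4 array 5 and WT 15, the faintest arrays, r fell to 0.181, so that relation rested on those arrays (0.603 without WT 10 and WT 14). Of the 10 pairs of genes, each by its reference probe, Cry2 and Csnk1d gave r = -0.664 (adjusted permutation p = 0.00295; rho = -0.447, 0.102) and Csnk1d and Csnk1e 0.567 (0.00593; rho = 0.36, 0.197). Within runs these were 0.14 and 0.214 in run 1 and -0.825 and 0.732 in run 2, and without Per3 4/4 array 5 and WT 15 they were -0.424 and 0.417 (-0.69 and 0.58 without WT 10 and WT 14). Both used Csnk1d A_51_P359813. The other 3 Csnk1d probes had the opposite sign, with r from 0.565 to 0.582 with Cry2 A_52_P248378 and from -0.291 to -0.197 with Csnk1e A_51_P429197, so the sign depended on the probe.

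Part of this variation, mainly in run 2, went with how steeply the level on an array rose with the GC content of the probe. What lies behind that difference between arrays was not tested. On each array, the level increased with the GC content of the probe, by 0.158 to 0.291 log2 units per 10 points of GC in run 1 and by 0.16 to 0.796 in run 2. Within run 2, the slope was lowest on WT 13 at 0.16 and highest on WT 15 at 0.796, and in Per3 4/4 lowest on array 5 at 0.185 and highest on array 7 at 0.638. These are the arrays at the ends of the range for most of the probes: WT 15 was the highest WT array of run 2 for Btrc, both Cry2 probes and 3 Csnk1d probes, and the lowest for Csnk1d A_51_P359813, Csnk1e A_51_P429197 and Cry1 A_52_P420500.

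Over the 30 arrays the Btrc deviation correlated with the slope with r = 0.836 (rho = 0.543; adjusted permutation p = 0.000577 and 0.0606 over 33 relations), and that of Cry1 A_52_P420500 with r = -0.796 (rho = -0.774; 0.000577 and 0.00066). Without WT 13 and WT 15 these were 0.742 and -0.788, and without WT 10 and WT 14 0.823 and -0.782. For Btrc the relation was positive in run 2 (r = 0.916) and negative in run 1 (-0.479), and for Cry1 A_52_P420500 it had the same sign in both runs (-0.387 and -0.827). WT 1 had the steepest slope of the WT arrays of run 1, at 0.284, and their lowest Btrc level, at -1.93. The Btrc value of run 1 was not computed without WT 1, so its sign may rest on that array. The size of r was over 0.5 for 1 of the 11 probes in run 1. In run 2 it was for 8, of which 6 rose and 2 fell with the slope. Probes with the same GC content as Btrc, 45%, differed in run 2. Cry2 A_52_P248378 gave 0.588 and Csnk1d A_51_P136277 0.935, but Csnk1e A_51_P429197 gave -0.367. The adjusted Pearson p was under 0.05 for 6 of the 11 probes and the Spearman p for 2. No matching count over all probes is given, here or for the pairs of probes below. The main component of variation between the arrays, with 21.0% of the variance, had r = 0.917 with the deviation of the slope. Whether the 11 probes follow the slope more than other probes do was not tested. With the slope taken out, 8 of the 55 pairs of probes correlated above 0.5 and 2 below -0.5, against 17 and 7 before, and Csnk1d A_51_P136277 and A_52_P477369 still reached 0.908.

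**Figure D5:**
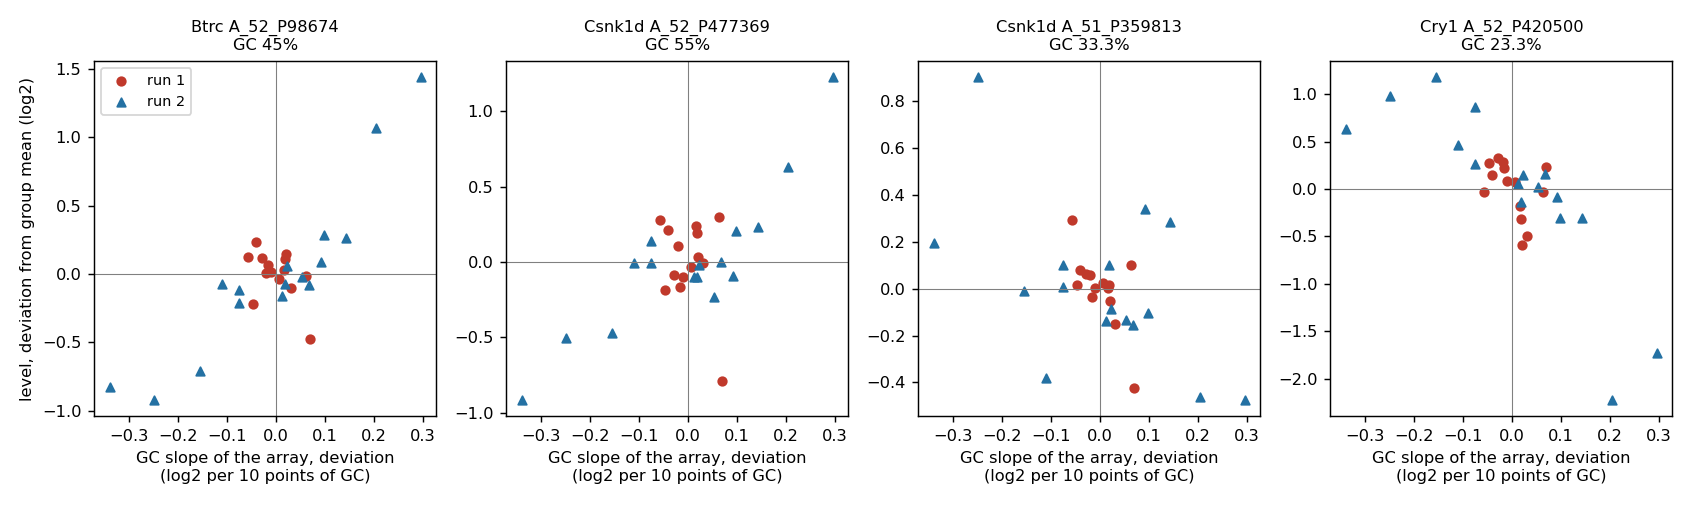
Deviation of the level from its group mean (y axis, log2; own scale in each panel) against the deviation of the array's slope on probe GC content (x axis, log2 per 10 points of GC), for a probe each of Btrc and Cry1 and 2 of Csnk1d. Red circles are the 14 arrays of run 1 and blue triangles the 16 of run 2; in run 2 the Btrc probe and Csnk1d A_52_P477369 rise and Csnk1d A_51_P359813 and Cry1 A_52_P420500 fall with the slope.

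The ranges of this slope overlapped between knock-in and WT in both runs. It lay between 0.181 and 0.291 on the Per3 5/5 arrays (median 0.212) and 0.158 and 0.284 on WT of run 1 (0.222), and between 0.185 and 0.638 on the Per3 4/4 arrays (0.451) and 0.16 and 0.796 on WT of run 2 (0.544). With the slope as a covariate, chosen after seeing the data, the Per3 4/4 difference of Btrc moved from -0.15 to 0.061, that of Cry1 A_52_P420500 from 0.21 to -0.089 and that of Cry2 A_51_P135542 from -0.14 to 0.056. Again 0 of 11 probes passed, adjusted or unadjusted, in either knock-in.

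As a description of which transcripts shared the pattern of each gene over the 30 arrays, its reference probe was set against the 29946 other probes tested. Btrc was closest to Grid1 (r = 0.964), a transcript listed as ENSMUST00000057281 (0.963) and Otub1 (0.959). Within runs these were 0.768, 0.533 and 0.79 in run 1 and 0.987, 0.987 and 0.971 in run 2. Cry2 was closest to Strn4 (0.918), Spata2 (0.905) and Shb (0.899), and Csnk1d A_51_P359813 to Tsn (0.911), Zscan12 (0.911) and Ehd4 (0.904), again with higher values in run 2 (0.921 to 0.963) than in run 1 (0.676 to 0.874). Csnk1e followed Fbrsl1 (0.884), Slc38a1 (0.839) and Ict1 (0.827). The Cry1 reference probe varied little between arrays, with a residual SD of 0.198 that 12.1% of the probes tested reach or stay under. Its correlations were lower, led by Bace2 (0.743), Ccdc109b (0.741) and Arid4a (0.702), and were 0.552 to 0.722 within run 1. Only the group means were removed, so technical effects on the arrays remain in these values, which are given with no p.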

How the data were processed

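Total RNA from hypothalamus blocks was labelled with Cy3 and hybridised to a 60-base Agilent mouse array. Per the file headers, the deposited scanner files hold the processed intensity of each spot after Feature Extraction; the header build was mm9 in run 1 and mm8 in run 2, and coordinates printed are those of the mm9 annotation. The authors also deposited a log2 table, centred per probe within each run, which was used as an alternative. Log2 intensities were shifted to the 75th percentile of each array (as in the study), control and outlier spots were left out, and spots of a probe averaged. A probe entered the test where the scanner's flag put it over background on no fewer than 50% of the arrays of any genotype. Means of each genotype in each run were fitted in limma 3.58.1 (R 4.3.3) with eBayes and Benjamini-Hochberg adjustment over 29947 probes; the study's own unpaired test was an alternative. The fit was tested on simulated data. Arrays of run 2 that share a slide code and position had deviations that correlated from -0.303 to -0.0983, so they were counted as separate arrays; a slide was taken as a scan. The number of arrays limits the precision. The genes, lists and tests were chosen with earlier results of these data known. Named genes were all probes of the 5 genes, the 3 probes with the smallest p in each pathway list and knock-in, and the 3 closest genes to each brightest probe. A named result of the list of modifiers is not reported here. Of these, Nfil3 A_52_P500027 (0.21) and Npas2 A_52_P534749 (-0.24) in Per3 5/5, and Tef A_52_P485573 (-0.13) and Npas2 A_52_P534749 (-0.21) in Per3 4/4 had an unadjusted p of 0.1 or more. Ciart, Crh, Nms and Pou1f1 were not found on the array under these names. Alternatives covered the slide as a block, background, normalization, filters, weights, tests and each array left out.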

Additional observations from a re-analysis of the deposited data

Results flagged for a closer look

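In 5 of the 44 combinations of a probe and a group, an array lay far from the others of its group, by a gap larger than the 95% critical share of the group's range; chance gives about 5% of groups, and these 5 share arrays, so they are not independent. WT 1 of run 1 was low for 3 Csnk1d probes, at -1.69 for A_51_P136277 (next array -1.13), 4.48 for A_51_P359813 (next 4.91) and -3.30 for A_52_P477369 (next -2.61), and for Btrc, at -1.93 (next -1.49). Per3 4/4 array 7 was low for Cry1 A_52_P420500, at -7.39 (next -5.46). Without WT 1 the Per3 5/5 difference of Csnk1d A_51_P359813 became -0.061 and that of Btrc -0.0053, and without Per3 4/4 array 7 the Per3 4/4 difference of Cry1 A_52_P420500 became 0.52.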

How the results depend on the processing

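In each comparison, 0 of the 11 probes (of 8 where every array had to exceed background) passed at an adjusted or unadjusted p under 0.05 under any alternative tried, including each of the 30 arrays left out in turn; the smallest unadjusted p was 0.132 in Per3 5/5, 0.0629 in Per3 4/4 and 0.137 for the difference between the effects. Over all probes the count past the adjusted threshold ran from 0 to 11 in Per3 5/5 (11 with array weights), from 0 to 14 in Per3 4/4 (14 with the slope on probe GC content, 0 with each run fitted alone or by the methods' test) and from 0 to 2 for the difference. The labels do not say that replicate numbers pair the mice. Deviations of same-numbered arrays in run 1 correlated from -0.285 to 0.399, which cannot exclude a pairing. With the number as a replicate block in run 1 the limma count stayed 0 of 11 (smallest adjusted p = 0.506). Per3 4/4 and its WT arrays share only the number 8. What follows are sign changes of values that never passed the test; the cause was not tested.

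With normexp background, the values became for Per3 5/5 -0.07 (Csnk1e A_52_P542419) and for the difference between the effects 0.049 (Cry1 A_52_P420500), -0.0022 (Cry2 A_51_P135542) and -0.020 (Csnk1e A_52_P542419). With quantile normalization, the values became for Per3 5/5 0.041 (Cry2 A_51_P135542) and -0.018 (Csnk1d A_51_P359813). With array weights, the values became for Per3 5/5 0.0039 (Cry2 A_51_P135542), -0.00058 (Cry2 A_52_P248378), -0.055 (Csnk1d A_51_P359813), -0.035 (Csnk1d A_52_P11576) and -0.0091 (Csnk1e A_52_P542419), for Per3 4/4 -0.0025 (Cry1 A_51_P302204), 0.049 (Cry2 A_52_P248378) and 0.026 (Csnk1e A_52_P542419) and for the difference between the effects -0.050 (Cry2 A_52_P248378), -0.035 (Csnk1d A_51_P136277), -0.015 (Csnk1d A_52_P477369) and -0.035 (Csnk1e A_52_P542419). With WT 10 and WT 14 left out (added after seeing the data), the values became for Per3 4/4 0.0075 (Cry2 A_52_P248378) and -0.0066 (Csnk1d A_51_P136277). With the slope on probe GC content as a covariate (also added then), the values became for Per3 4/4 -0.089 (Cry1 A_52_P420500), 0.056 (Cry2 A_51_P135542), 0.046 (Cry2 A_52_P248378), 0.042 (Csnk1d A_52_P11576) and 0.061 (Btrc A_52_P98674) and for the difference between the effects 0.22 (Cry1 A_52_P420500), -0.14 (Cry2 A_51_P135542), -0.032 (Cry2 A_52_P248378), -0.1 (Csnk1d A_51_P136277), -0.066 (Csnk1d A_52_P477369) and -0.029 (Btrc A_52_P98674).

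Leaving out single arrays, for Per3 5/5 Cry2 A_51_P135542 ran from -0.093 to 0.020, Cry2 A_52_P248378 ran from -0.023 to 0.073, Csnk1d A_51_P359813 ran from -0.061 to 0.058 and Btrc A_52_P98674 ran from -0.0053 to 0.11. Leaving out single arrays, for Per3 4/4 Cry1 A_51_P302204 ran from -0.045 to 0.068, Cry1 A_52_P420500 ran from -0.040 to 0.52, Cry2 A_51_P135542 ran from -0.27 to 0.055, Cry2 A_52_P248378 ran from -0.10 to 0.061, Csnk1d A_51_P136277 ran from -0.13 to 0.17, Csnk1d A_52_P11576 ran from -0.13 to 0.017, Csnk1d A_52_P477369 ran from -0.059 to 0.25 and Btrc A_52_P98674 ran from -0.30 to 0.058. Leaving out single arrays, for the difference between the effects Cry1 A_52_P420500 ran from -0.46 to 0.11, Cry2 A_51_P135542 ran from -0.1 to 0.23, Cry2 A_52_P248378 ran from -0.032 to 0.13, Csnk1d A_51_P136277 ran from -0.043 to 0.26 and Csnk1d A_52_P477369 ran from -0.054 to 0.25. The ends of the Per3 4/4 ranges came from leaving out WT 13 or WT 15, or Per3 4/4 array 4, 5 or 7.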
